A study of Homo sapiens with 12 samples.

Results

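APOE, LPL, SQLE and SCD are 4 genes of macrophage lipid handling, and their regions were taken as the rows of the deposited m7G peak table that overlap their RefSeq gene bodies on GRCh38. The rule found 7 rows of 9958: 2 for APOE, 1 for LPL, 2 for SQLE and 2 for SCD. The 2 SQLE rows have the same coordinates and the same counts, so they were described once, which left 6 different regions. The 2 SCD rows overlap, with the row of the KD set lying inside that of the NC set, so they share most of their reads. All 6 regions passed the filter on low counts and were tested.

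The study profiled 7-methylguanosine (m7G), a methylated base of mRNA caps, tRNAs and internal mRNA sites, by immunoprecipitating RNA fragments with an m7G antibody (m7G meRIP-seq). The cells were THP-1, a human monocytic leukemia line, made adherent with the phorbol ester PMA at 100 ng/ml for 48 hours in all groups. The 12 libraries form 4 groups of 3: KD IP and KD IN from cells with a short hairpin against METTL1, and NC IP and NC IN from control cells, which the series text calls wildtype. All libraries were made from mRNA enriched with oligo(dT) beads. IP stands for immunoprecipitated RNA, and the IN libraries were treated as input. METTL1 is the catalytic subunit of an m7G methyltransferase, and no region overlapped it, so the knockdown itself was not measured here. The hairpin vector, and whether the 3 libraries of a group are separate cultures, are not stated in the labels. The p-values therefore set a difference against the spread between these libraries, which need not be the spread between cultures.

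Macrophages take up lipoprotein lipid, store it in droplets and export cholesterol, and a macrophage loaded with such droplets is a foam cell. APOE is an apolipoprotein that macrophages secrete to carry cholesterol away, and it is a target of the oxysterol-sensing LXR nuclear receptors. LPL is the secreted lipase that releases fatty acids from lipoprotein triglyceride. SQLE, squalene epoxidase, catalyses a rate-limiting step of cholesterol synthesis under control of the transcription factor SREBP2, and SCD, stearoyl-CoA desaturase, makes monounsaturated fatty acids and is a target of SREBP1 and LXR.

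The regions lay at 2 kinds of position. All are on the plus strand and overlap no other RefSeq gene. The APOE 5′ region (chromosome 19, 44905790 to 44906376, 587 bases, NC set) begins 6 bases before the gene start, and the APOE 3′ region (44908824 to 44909094, 271 bases, KD set) is centred at 87.9% of the gene body. The LPL region (chromosome 8, 19938944 to 19939451, 508 bases, KD set) begins 309 bases before the RefSeq gene start and reaches 199 bases into the gene. The SQLE region (chromosome 8, 124998496 to 124998677, 182 bases, both sets) begins 9 bases before the gene start. The SCD regions (chromosome 10, 100361918 to 100362129 in the KD set and 100361888 to 100362159 in the NC set) are centred at 84.1% of the gene body. The reference used here gave no exons, so coding sequence and untranslated regions were not separated.

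**Figure D1:**
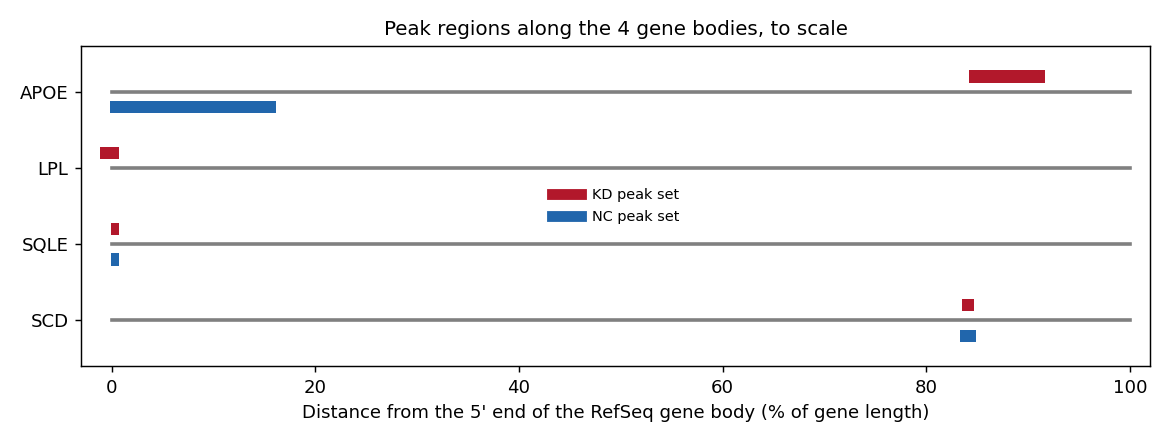
Peak regions along the RefSeq gene bodies of APOE, LPL, SQLE and SCD. The horizontal axis is the distance from the 5′ end in percent of gene length, grey lines are gene bodies, red bars are regions of the KD set and blue bars those of the NC set. The LPL, SQLE and first APOE regions sit at the 5′ end, while the SCD regions (84.1%) and the other APOE region (87.9%) lie near the 3′ end.

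Of the 4 genes, 2 had an entry among the RefSeq promoter sequences (GRCh38.p14, plus strand). The first 281 bases of the APOE 5′ region (chr19:44905790-44906070) are shown because this region spans annotated transcript starts. RefSeq lists 3 APOE starts, and 2 of them fall inside the region, at its positions 7 and 232. The capitals mark 10 bases from each of these starts.
APOE 5′ region: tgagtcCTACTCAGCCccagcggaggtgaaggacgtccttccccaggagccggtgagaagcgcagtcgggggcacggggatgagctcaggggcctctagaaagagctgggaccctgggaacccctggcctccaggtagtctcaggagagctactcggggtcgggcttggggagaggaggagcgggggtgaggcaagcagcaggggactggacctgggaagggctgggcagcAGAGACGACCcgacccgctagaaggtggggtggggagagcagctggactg
G made up 42.7% of these bases, and G and C together 66.9%.

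The windows from 250 bases before to 50 bases after the SCD start (chr10:100346983-100347282) and the first APOE start (chr19:44905546-44905845) are shown because reads of both genes were higher in KD. The capitals mark matches to the motifs searched on both strands, with no overlap between matches.
SCD start: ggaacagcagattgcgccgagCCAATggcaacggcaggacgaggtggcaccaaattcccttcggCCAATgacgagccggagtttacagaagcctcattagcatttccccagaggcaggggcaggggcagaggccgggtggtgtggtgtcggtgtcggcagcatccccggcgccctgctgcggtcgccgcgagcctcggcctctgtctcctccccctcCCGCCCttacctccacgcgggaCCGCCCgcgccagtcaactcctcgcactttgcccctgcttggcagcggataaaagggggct
APOE start: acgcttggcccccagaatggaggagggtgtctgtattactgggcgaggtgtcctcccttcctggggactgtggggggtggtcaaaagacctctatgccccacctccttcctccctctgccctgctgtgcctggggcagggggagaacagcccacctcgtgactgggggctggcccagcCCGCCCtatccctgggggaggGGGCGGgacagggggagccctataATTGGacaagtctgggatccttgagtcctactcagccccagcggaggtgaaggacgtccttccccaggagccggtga
The CCAAT box (CCAAT) matched 2 times in the SCD window and 1 time in the APOE window, and 34.6% of 35116 RefSeq windows of this length hold it. The GC box (GGGCGG) matched 2 times in each window, and 45.0% of windows hold it. The TATA box (TATAAA, in 11.5% of windows) had 0 matches in both windows. That says only that these letters are not in these windows.

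Summed over all rows of the peak table, each IP library had 1476384 to 1888972 reads, and each IN library 907024 to 1105477. Peaks of the KD and NC sets can overlap, and a read in overlapping rows counts once in each. These sums are therefore not numbers of different reads. Reads outside peaks were not in the table, so the full depth is not known here. The NC libraries stood apart by cell line markers, on lists chosen with earlier results of these data known. Of 28 monocyte and macrophage genes 9 had a region, among them CYBB, CD68 and ITGAX, with a summed input level of 953 to 1005 CPM (reads scaled to a common library total, edgeR's CPM with TMM scaling) in KD IN against 595 to 621 in NC IN. CD14, CD163 and CSF1R had no region, so their level was not measured. Of 18 pan-leukocyte genes 6 had a region, with 2923 to 3207 CPM in KD IN against 1248 to 1427 in NC IN. Of 19 genes high in HEK293, a human embryonic kidney line, 13 had a region, with 1567 to 1878 CPM in KD IN against 12316 to 12817 in NC IN. NEFM, a neurofilament gene, had 5 reads in KD IN against 14330 in NC IN. HOXC8 and LIN28B, named after their values were seen, had 0 reads in KD IN against 419 and 191 reads in NC IN. Among the tested genes of this list, NEFH alone was higher in KD IN (log2 1.12). TCEAL9 was lower in KD IN (log2 -1.18) but far from absent, with 2922 reads against 5854 in NC IN. In KD IN, TCEAL9 had a mean of 987 CPM and NEFH of 296, much of the summed level of this list there. In NC IN, NEFM had a mean of 5483 CPM and TCEAL9 of 2242, much of the summed level there. The gap in the sums thus rests largely on few genes, although 11 of the 12 tested genes were called lower in KD IN. No hepatocyte (0 of 16) or erythroid (0 of 12) marker had a region, 1 of 14 lymphoid markers did (CD4, at most 4.62 CPM), and 3 of 12 adipocyte markers did, with at most 13.9 CPM in input. Differences between KD and NC below therefore stand beside these marker differences, whose part in them was not tested. In bulk RNA, fewer cells of a type and less RNA per cell cannot be told apart.

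The first comparison asks whether RNA of the 4 genes was more or less abundant in KD than in NC, from input reads in the same regions. KD and NC also differed in the cell line markers above, and an effect of the knockdown was not tested apart from that difference. All 4 genes were higher in KD input: LPL 3.04-fold, APOE 2.77-fold and 2.62-fold in its 2 regions, SQLE 2.53-fold and SCD 1.5-fold and 1.57-fold. All 6 regions were past the threshold, higher in KD, against 17.9% of the 5113 tested regions called higher, 21.9% called lower and 39.8% called in either direction. These shares, here and below, count overlapping peaks separately. With 1 region kept per cluster of overlapping peaks, 720 of 3523 regions were called higher and 1442 in either direction. The threshold was an adjusted p of 0.05 in edgeR's quasi-likelihood test with Benjamini-Hochberg adjustment over all tested regions, and adjusted p-values below are from it. The median log2 change of the 6 regions was 1.37, against -0.01 over all tested regions, whose quartiles were -0.73 and 0.63. The 6 regions come from 4 genes and the SCD pair shares reads, so they are not 6 independent values. The 4 genes were also chosen with earlier results of these data known. Setting them against all tested regions, here and below, is therefore a description only. The LPL and APOE 3′ regions came from the KD peak set alone, and both were higher in KD. The APOE 5′ region came from the NC set alone. How far entry through the peaks of 1 group shaped the KD over NC values was not tested.

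APOE, the secreted cholesterol carrier, had 1298, 1573 and 1736 CPM in its 3′ region in KD IN, against 654, 584 and 518 CPM in NC IN. Every KD library lay above every NC library. The log2 change was 1.39 ± 0.13 (SE, adjusted p = 7.6e-09). In its 5′ region APOE had 193, 189 and 154 CPM in KD IN, against 88, 35.4 and 68.2 CPM in NC IN. These groups did not overlap either, although the NC libraries spread more than 2-fold around 171 reads in all. The log2 change there was 1.47 ± 0.22 (adjusted p = 7.3e-06), close to that of the 3′ region within the errors.

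LPL, the lipoprotein lipase, had 514, 423.5 and 427 CPM in KD IN, against 186.5, 134 and 127 CPM in NC IN. The lowest KD library was more than 2-fold above the highest NC library. The log2 change of 1.60 ± 0.15 (adjusted p = 2.7e-09) was the highest of the 6 regions, in a region of the KD set alone. SQLE, the squalene epoxidase, had 576, 597 and 683 CPM in KD IN, against 234, 237.5 and 261 CPM in NC IN, and the libraries of each group lay close together. Its log2 change was 1.34 ± 0.13 (adjusted p = 5.1e-09).

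SCD, the desaturase, had 1673, 1546 and 1452 CPM in KD IN, against 998, 1070.2 and 909.6 CPM in NC IN, in the region of the NC set. The groups were apart, but by less than in the other genes. The log2 change was 0.65 ± 0.11 (adjusted p = 4.6e-05), and 0.59 ± 0.12 (adjusted p = 0.00052) in the region of the KD set. For scale, the summed level of the pan-leukocyte regions was 2.24-fold and that of the monocyte and macrophage regions 1.63-fold higher in KD IN. Single leukocyte genes ranged in input from a log2 change of 0.49 for ITGB2, an integrin subunit, to 1.59 for ARHGDIB.

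**Figure D2:**
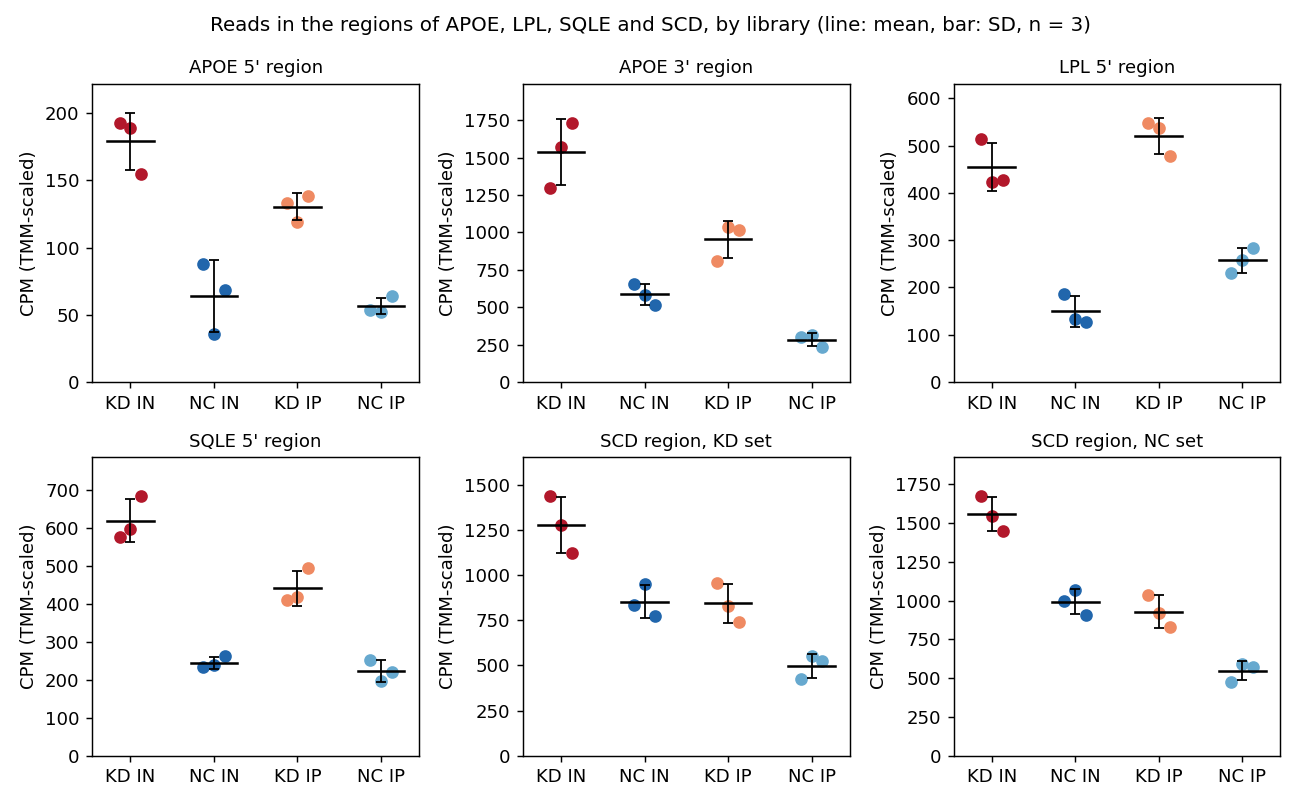
Reads in each region of the 4 genes by library, in TMM-scaled CPM, with points for single libraries, lines for group means and bars for the SD (n = 3). In all 6 panels the KD IN points lie above the NC IN points and the KD IP points above the NC IP points.

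Per kilobase of region, input levels describe the regions and do not rank the genes, since the 5′ and 3′ regions of APOE itself lay far apart. In KD IN the levels were 6040 ± 737 CPM per kilobase (SD, n = 3) in the KD set region of SCD, 5667 ± 817 in the APOE 3′ region, 3399.6 ± 311 in SQLE, 895.5 ± 101 in LPL and 305 ± 36.2 in the APOE 5′ region. The SCD and APOE 3′ regions, both near the 3′ end of their gene, did not differ beyond their spread. The SQLE, LPL and APOE 5′ regions, all at the 5′ end, were apart by more than the spread. The divisor is the full region length, with 309 of 508 bases before the RefSeq gene start in LPL. In SQLE it was 9 of 182 bases and in the APOE 5′ region 6 of 587, and exons were not known. The part of this in the gaps was not tested. In NC IN the same order held, with 4026.5 ± 436, 2159 ± 251, 1341 ± 82.1, 294 ± 63.9 and 109 ± 45.3, and there the SCD region lay above the APOE 3′ region. Within APOE, the 5′ region held 4.11% to 6.86% of the level per kilobase of the 3′ region in KD IN and 2.8% to 6.21% in NC IN. In the immunoprecipitates it held 5.29% to 7.6% in KD IP and 7.63% to 12.7% in NC IP, so the IP groups only just did not overlap. This ratio was not tested.

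The second comparison is the same contrast in the immunoprecipitates, where abundance and antibody capture act together. All 6 regions were higher in KD IP and past the threshold, against 20.9% of tested regions called higher, 20.1% called lower and 41.0% called in either direction. The 6 had a median log2 change of 1.0, against 0.05 over all tested regions. The APOE 3′ region had 809.8, 1038 and 1014 CPM in KD IP, against 298, 316 and 232 CPM in NC IP. Its log2 change of 1.76 ± 0.14 (adjusted p = 1.8e-10) was the highest of the 6 here, and this region was of the KD set alone. The APOE 5′ region, with 133, 119 and 138 CPM in KD IP against 53.6, 52.3 and 63.6 CPM in NC IP, gave 1.20 ± 0.21 (adjusted p = 3.6e-05).

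LPL had 549, 537 and 478 CPM in KD IP, against 231, 257 and 283 CPM in NC IP, a log2 change of 1.02 ± 0.13 (adjusted p = 7.6e-07). SQLE had 409.7, 418 and 494 CPM in KD IP, against 252.5, 196 and 221.5 CPM in NC IP (0.98 ± 0.12, adjusted p = 4.2e-07). SCD had 1039, 918 and 831 CPM in KD IP, against 476, 593 and 574 CPM in NC IP, in the region of the NC set (0.76 ± 0.11, adjusted p = 4.4e-06). No group pair overlapped in any of the 6 regions. All KD libraries lay above all NC libraries in 29.5% of the tested regions in IP and in 20.2% in input.

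**Figure D3:**
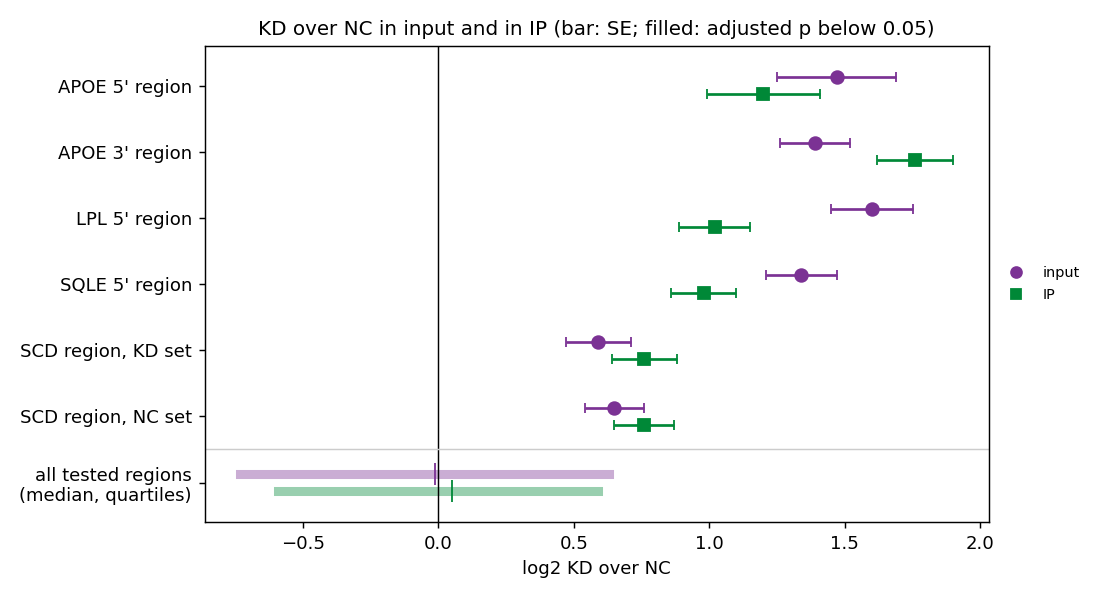
Log2 change of KD over NC for each region in input (circles) and in IP (squares), with SE bars and filled symbols for an adjusted p below 0.05. The bottom row gives the median and quartiles of all 5113 tested regions. All 6 regions lie right of 0 in both, from 0.59 to 1.60 in input and from 0.76 to 1.76 in IP.

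The third comparison asks how strongly the antibody captured each region relative to the average peak region, as IP over input in each group. Of the 6 regions, LPL alone had a higher CPM in the immunoprecipitate than in input in KD and in NC, and the other 5 had a lower one in both. In KD, LPL had 549, 537 and 478 CPM in IP against 514, 423.5 and 427 CPM in IN, and these libraries overlapped. The KD log2 value of 0.20 ± 0.13 did not pass (adjusted p = 0.22), but it did with library size alone in place of TMM scaling (0.37, adjusted p = 0.023). In NC, LPL had 231, 257 and 283 CPM in IP against 186.5, 134 and 127 CPM in IN, 1.71-fold higher (log2 0.78 ± 0.14, adjusted p = 9.5e-05), and these libraries did not overlap. The authors' deposited table lists this LPL peak in the KD set alone, with a fold enrichment of 11.7. The counts gave the log2 value of 0.20 above in KD, relative to the average peak region, so the deposited value does not follow from them alone, and how it was computed is not known here.

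The APOE 3′ region was lower in IP than in input, at log2 -0.69 ± 0.13 in KD (adjusted p = 0.00012) and -1.05 ± 0.14 in NC (adjusted p = 7.6e-07). SCD was lower too, at -0.74 ± 0.11 in KD (adjusted p = 5.7e-06) and -0.86 ± 0.11 in NC (adjusted p = 8.6e-07) in the region of the NC set. SQLE was lower in KD, at -0.49 ± 0.12 (adjusted p = 0.0016), and had -0.13 ± 0.13 in NC (adjusted p = 0.43). The APOE 5′ region had -0.46 ± 0.20 in KD (adjusted p = 0.058) and -0.20 ± 0.23 in NC (adjusted p = 0.50). With library size alone the NC values of SQLE and of the APOE 5′ region turned to 0.17 and 0.09.

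In KD, 4 of the 6 regions were called lower and 0 higher, against 21.4% and 23.5% of all tested regions (44.9% in either direction). In NC, 3 were called lower and 1 higher, against 24.0% and 22.7% (46.7% in either direction). The median log2 IP over input of the 6 was -0.55 in KD and -0.49 in NC, against 0.23 and 0.13 over all tested regions. Lower here means captured less than the average peak region and not a lack of capture. In the authors' deposited table, the APOE, SQLE and SCD peaks have fold enrichments of 1.62 to 1.99. The 3′ regions of APOE and SCD had the lowest values in both groups, below the first quartile of all tested regions, which was -0.48 in KD and -0.57 in NC. The 5′ regions of APOE, LPL and SQLE lay between the quartiles in NC. In KD, LPL lay near the median of all tested regions (0.20 against 0.23), so it was captured much like a typical peak region. SQLE was just below the first quartile in KD.

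**Figure D4:**
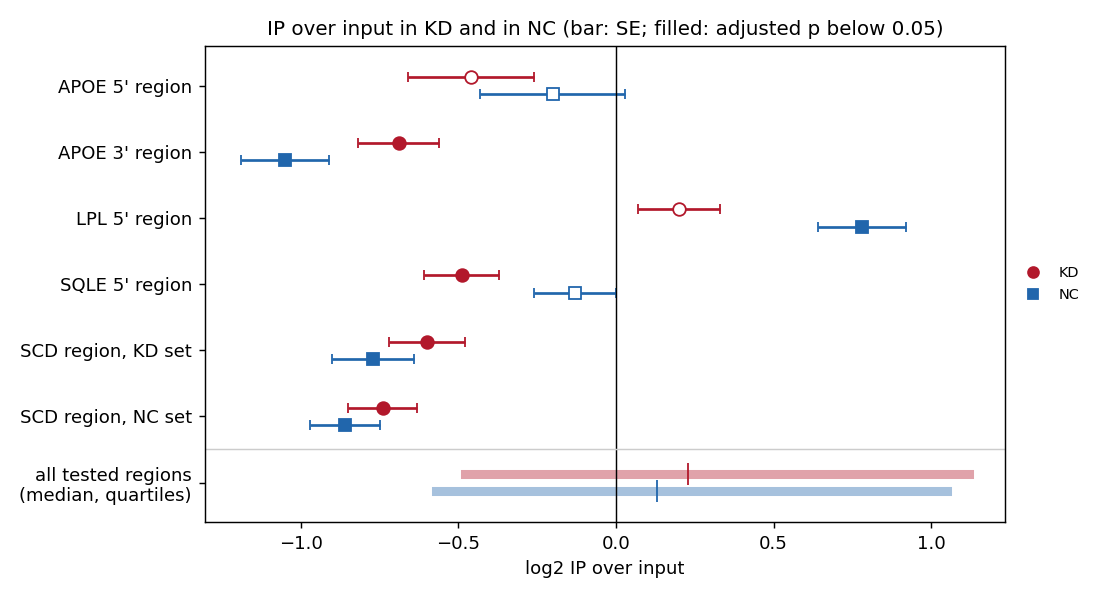
Log2 IP over input for each region in KD (circles) and NC (squares), with SE bars and filled symbols for an adjusted p below 0.05, and the median and quartiles of all tested regions in the bottom row. LPL lies right of 0 in both groups (0.20 in KD and 0.78 in NC), and the APOE 3′ and SCD regions lie farthest left.

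The fourth comparison asks whether enrichment itself differed between KD and NC, beyond abundance. None of the 6 regions passed in edgeR, and 0.0% of all tested regions did, with 610 of 5113 at an unadjusted p under 0.05. DESeq2 called 21 regions, none of them among the 6. LPL had the lowest value, a change in log2 IP over input of -0.58 ± 0.20 (adjusted p = 0.25, from 0.081 to 0.37 over 18 alternatives), followed by SQLE with -0.36 ± 0.17 (adjusted p = 0.41). The APOE regions had opposite signs, with 0.37 ± 0.19 in the 3′ region (adjusted p = 0.45) and -0.26 ± 0.30 in the 5′ region (adjusted p = 0.77). SCD had 0.11 ± 0.16 (adjusted p = 0.82) in the region of the NC set and 0.17 ± 0.18 (adjusted p = 0.73) in that of the KD set. The authors' deposited table gives -0.70 for LPL (adjusted p = 0.11), -0.49 for SQLE (adjusted p = 0.22) and 0.24 for the APOE 3′ region (adjusted p = 0.59). The enrichment of LPL, not past the threshold in KD and past it in NC, is therefore not shown to differ between them.

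The other genes of lipid metabolism were counted over 7 lists with 164 genes. Beside the 4 genes, 34 had a tested region, and 8 of them were higher and 5 lower in KD input, where 17.9% of all tested regions were called higher and 21.9% lower. Their median log2 change was 0.33. Each gene was counted by its region with the most reads. The single lists below hold few tested genes, so their counts are a description and not a result about a pathway. They include any of the 4 genes in the list, which were chosen with earlier results known.

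Of 8 tested cholesterol synthesis genes of 21, SQLE and CYP51A1 were higher in KD input and DHCR7 was lower, where 39.8% of all tested regions were called in either direction. Leaving out single libraries gave 1 to 3 higher and 0 to 1 lower. CYP51A1, lanosterol demethylase, had 160.2 ± 20.5 CPM in KD IN and 114 ± 11.8 in NC IN (SD, n = 3 each), a log2 change of 0.50 ± 0.17 (adjusted p = 0.024). DHCR7, which makes cholesterol from 7-dehydrocholesterol, had 34.4 ± 17.6 CPM in KD IN and 73.7 ± 19.0 in NC IN (-1.09 ± 0.34, adjusted p = 0.012). CYP51A1 lost its call without KD IN replicate 2 (0.45, adjusted p = 0.076) or NC IN replicate 1 (0.47, adjusted p = 0.061). DHCR7 did so without KD IN replicate 3 (-0.67, adjusted p = 0.097) or NC IN replicate 3 (-0.82, adjusted p = 0.090). HMGCS1, the HMG-CoA synthase, had 0.34 ± 0.19 (adjusted p = 0.15), and passed without KD IN replicate 3 (0.54, adjusted p = 0.030). In the list of SREBP control and LDL uptake, only SREBF2, which encodes SREBP2, was tested (1 gene of 16), with 0.32 ± 0.41 (adjusted p = 0.56) in a region that also overlaps SREBF2-AS1.

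Of 11 tested genes of fatty acid synthesis, elongation and desaturation, 4 were higher, SCD among them, and 2 were lower. Over all tested regions, 17.9% were called higher and 21.9% lower. The count of higher genes was 2 without NC IN replicate 2, and 2 to 5 over all left-out libraries. The count of lower genes was 1 without KD IN replicate 1, KD IN replicate 2 or NC IN replicate 3. ACSL1, an acyl-CoA synthetase, had 79.0 ± 6.9 CPM in KD IN and 43.8 ± 10.2 in NC IN (0.84 ± 0.29, adjusted p = 0.022), and lost its call without NC IN replicate 2 (0.74, adjusted p = 0.067). Both lower genes encode dehydratases of very-long-chain fatty acid elongation. HACD3 had 19.6 ± 6.25 CPM in KD IN and 81.1 ± 31.0 in NC IN (-2.03 ± 0.31, adjusted p = 1.2e-05). HACD2 rested on 6 reads in KD IN and 31 in NC IN (-2.46 ± 0.88, adjusted p = 0.028) and lost its call without KD IN replicate 1 or 2 (-1.83 in each case) or NC IN replicate 3 (-2.04). Without KD IN replicate 3, KD IN had 0 reads of HACD2.

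Of 4 tested genes of the LXR and efflux list, APOE and NR1H2 were higher and 0 were lower. For this list and the next, 17.9% of all tested regions were called higher and 21.9% lower. NR1H2, the LXR beta receptor, had 227 ± 35.1 CPM in KD IN and 129 ± 9.94 in NC IN (0.82 ± 0.16, adjusted p = 0.00015). NR1H3, the LXR alpha receptor, had 8.95 ± 4.67 CPM in KD IN and 10.0 ± 7.36 in NC IN (-0.17 ± 0.58, adjusted p = 0.84). Of 3 tested scavenger and lipoprotein receptors, LRP10, a receptor of the LDL receptor family, was higher, with 286 ± 23.7 CPM in KD IN and 107.5 ± 23.0 in NC IN (1.4 ± 0.18, adjusted p = 6.3e-07). LRP1, which binds APOE-bearing lipoproteins, had 8 reads in KD IN and 17 in NC IN (-1.23 ± 0.75, adjusted p = 0.20).

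Of 7 tested genes of lipolysis and lipid droplets, LPL and G0S2 were higher and LMF1 was lower, and 2 were lower without NC IN replicate 2. The shares over all tested regions were 17.9% higher and 21.9% lower. G0S2, an inhibitor of adipose triglyceride lipase, had 738 ± 75.6 CPM in KD IN and 418 ± 25 in NC IN (0.82 ± 0.12, adjusted p = 5.8e-06), in a region that also overlaps HSD11B1-AS1. LMF1, a factor that LPL needs to mature, had 5.5 ± 2.3 CPM in KD IN and 22.6 ± 11.5 in NC IN (-2.03 ± 0.52, adjusted p = 0.0028), in a region that also overlaps CEROX1. PCSK6, a proprotein convertase that can cleave LPL, had 6 reads in KD IN and 0 in NC IN and did not pass (adjusted p = 0.054), although it did in 5 alternatives, at adjusted p-values of 0.019 to 0.046.

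In the list of fatty acid oxidation and PPAR control, with 4 tested genes, PPARGC1B was higher and ETFB was lower, and 2 were higher without NC IN replicate 2. These counts are near the shares over all tested regions, 17.9% higher and 21.9% lower. PPARGC1B, a coactivator of mitochondrial genes, had 107 ± 7.11 CPM in KD IN and 50.1 ± 19.5 in NC IN (1.08 ± 0.24, adjusted p = 0.00089). ETFB, a subunit of the electron transfer flavoprotein, had 22.9 ± 11.6 CPM in KD IN and 61.5 ± 16.2 in NC IN (-1.40 ± 0.31, adjusted p = 0.00088). PPARG, the nuclear receptor of lipid storage, had 13 reads in KD IN and 21 in NC IN (-0.86 ± 0.67, adjusted p = 0.33). No tested gene of the 7 lists passed in the change of enrichment; the smallest adjusted p was that of LPL.

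**Figure D5:**
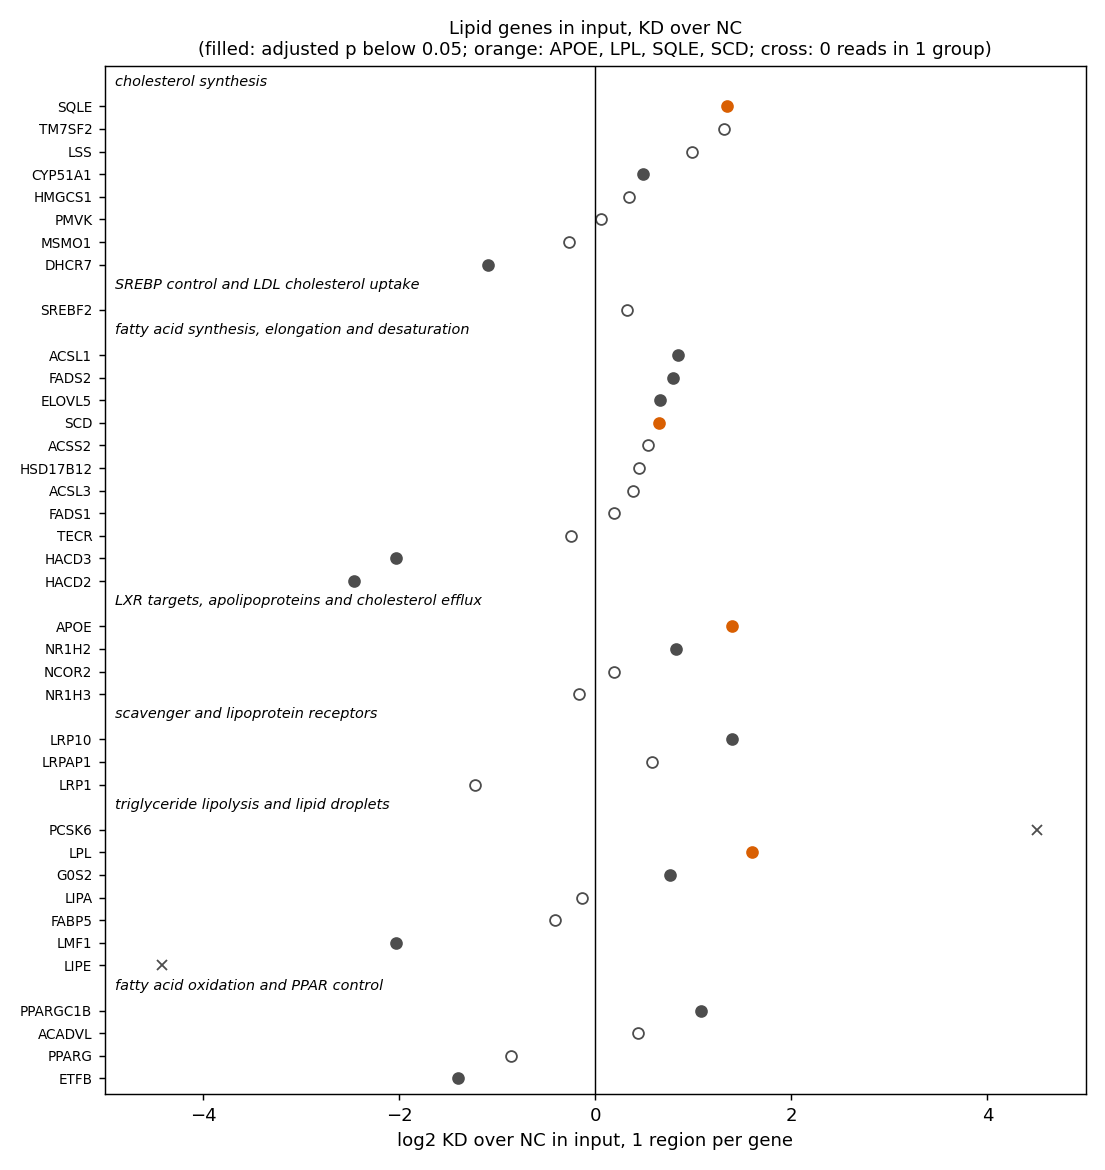
Log2 change of KD over NC in input for each tested gene of the 7 lipid lists, 1 region per gene. Filled symbols have an adjusted p below 0.05, orange symbols are APOE, LPL, SQLE and SCD, and crosses mark genes with 0 reads in 1 group, whose fitted value is no measured fold. Of the 34 other genes, 8 filled symbols lie right of 0 and 5 left of it.

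The genes whose regions resembled the 4 most closely were sought by the correlation of log2 CPM over the 12 libraries among 4279 regions of 1 gene each. The libraries fall into 4 groups, so this correlation mostly follows the group means and is a description only. For APOE (3′ region) they were MAP3K5 (r = 0.981), RGS16 (0.979) and NEFH (0.978). For LPL they were FZD1 (0.957), FMNL1 (0.955) and PPL (0.94). For SQLE they were ZBTB7A (0.973), NCKAP1L (0.969) and TPM4 (0.967), and for SCD CIRSR (0.986), LACC1 (0.984) and TUT7 (0.982). The genes most like LPL had, as it did, a higher level in NC IP than in NC IN, with log2 values of 2.60, 2.26 and 4.17 against 0.78 for LPL. Their input changes were also larger, at 4.48, 3.21 and 6.92 against 1.60. Both values are taken against the same NC IN level. The NC IN reads of FZD1, FMNL1 and PPL are not given here, so these fitted values may rest on few reads. In KD IP over input, FZD1 and FMNL1 had 0.22 and 0.55 but PPL had -0.53, against 0.20 for LPL.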

How the data were processed

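The members and gene lists were chosen with earlier results of these data known. The authors deposited 1 table of 9958 peaks, 5008 named for KD and 4950 for NC, so calls are per group. Per the submitters' processing notes, trimming used fastp 0.23.4 on build GRCh38 data, and no aligner, peak caller or counter is named there. The count columns that the authors deposited hold whole unnormalized reads for each peak. The authors' fold enrichment and score are ratios of IP over input, their p-values and adjusted p-values belong to the peak call or the difference, and their log2 change compares enrichment in KD with NC.

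Peaks were joined to RefSeq gene bodies (GRCh38.p14) by overlap on either strand. The filter filterByExpr (minimum count 10, minimum total 15) kept 5113 regions. With edgeR 4.0.16 (R 4.3.3), TMM scaling was followed by a quasi-likelihood test on 4 group means with 8 residual degrees of freedom, and p-values were two-sided and adjusted by the Benjamini-Hochberg method at 0.05. SE is the absolute log2 change over the root of F. CPM used TMM-scaled totals, so values are relative to the average peak region. Few reads limit precision most in the APOE 5′ region. The code was tested on simulated data with far fewer changed regions than were called here. That checks the code, and not how well the model and scaling suit these data.

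Beside the 4 genes, each list's up to 4 genes with the smallest p in input, and up to 2 in enrichment change, could be named, at their region with the smallest p. Alternatives were DESeq2 1.42.0, a replicate block, leaving out each library, 1 region per overlapping cluster, library size alone, a minimum of 50 reads, no count filter and a threshold of 0.01.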

Additional observations from a re-analysis of the deposited data

How the results depend on the processing

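Each of the 6 regions stayed higher in KD and past the threshold in input and in IP under every alternative that could be fitted, with log2 changes of 1.24 (without NC IN replicate 2) to 1.83 (without NC IN replicate 1) for the APOE 5′ region, 0.56 to 0.74 for SCD (KD set), 1.36 to 1.56 for the APOE 3′ region, 1.55 to 1.85 for LPL, 1.34 to 1.46 for SQLE and 0.64 to 0.77 for SCD (NC set) in input. The SCD region of the KD set was not fitted with 1 region per overlapping cluster, since the longer region was kept. None of the 6 passed in the change of enrichment under any alternative. Of 535 comparisons of a member region with an alternative, 516 kept direction and call, 8 gained a call and 11 changed sign, none of these a called value; the cause was not tested. The APOE 5′ region in KD IP over input gained a call in 7 alternatives, at adjusted p-values down to 0.013.

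The sign changed in NC IP over input for SQLE with library size alone (0.17), with no filter (0.04) and with 1 region per cluster (0.04), and for the APOE 5′ region with library size alone (0.09) and over the left-out libraries (-0.42 to 0.16). It changed in the enrichment change of SCD (NC set) with library size alone (-0.01) and 1 region per cluster (-0.01), and without single libraries in SCD (-0.05 to 0.19 and -0.02 to 0.26) and SREBF2 (-0.29 to 0.46). In input it did so without single libraries in NR1H3 (-0.57 to 0.67) and LRPAP1 (-0.57 to 2.15).

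Over all regions, 1 region per cluster gave 1399 calls in KD IP over input (2296 with all regions) and 1504 in NC (2389), with fewer regions tested. Library size alone raised the share of higher calls to 63.6% in KD and 67.2% in NC, against 52.3% and 48.6% with TMM, and gave medians over all regions of 0.40 and 0.42, against 0.23 and 0.13 with TMM. No filter gave 61.9% and 62.5%. The change of enrichment had 21 calls with DESeq2, 45 with no filter and 0 to 1 without single libraries. With a replicate block it had 16. Libraries of the same number did not deviate together (correlations of -0.088 to 0.068). With few reads in many regions, such correlations can be near 0 even for paired libraries. Whether they are paired, which the main test left out, is therefore not settled. Of the list counts in input, 240 stayed within 1.5 times and 12 moved by more, all in single-library omissions or with 1 region per cluster, where a gene's listed region could be dropped. For the other named genes, 511 comparisons kept direction and call, 8 lost a call, 7 gained one and 5 changed sign. Regions with few input reads, such as those of HACD2 and LRP1, limit what depth can show.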
